A study of Mus musculus with 6 samples.

Results

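The genes described here encode the proteins of the cytosolic ribosome. They were taken by name from a table of transcript levels: names that begin with Rpl or Rps followed by a number and at most one of the letters a, x, y or l, the stalk protein genes Rplp0, Rplp1 and Rplp2, and Rpsa. The rule found 80 genes among the 31469 rows of the table, 31 of the small subunit and 49 of the large subunit, and each had a single row. The levels come from RNA sequencing of mouse sensory neurons that make parvalbumin, from the lumbar 4 dorsal root ganglion of C57BL/6 animals at postnatal day 21. Parvalbumin marks mainly proprioceptive neurons in this ganglion. The 3 wild-type libraries were compared with 3 libraries in which Dicer, the ribonuclease that makes mature microRNAs, was deleted by a Cre recombinase driven by parvalbumin. The labels give no further allele for either group, and do not tell which animals went into which library. The p-values therefore cover the spread among the 6 libraries alone, part of which may be technical. It also includes a difference in sex-linked transcripts within each group, described below.

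The ribosome reads messenger RNA with its small subunit and joins amino acids with its large subunit, and nearly every ribosomal protein is present in a single copy per particle. Most ribosomal protein genes are expressed at high levels in every cell, although transcript levels differ between the genes. Their messengers start with a 5' terminal oligopyrimidine (TOP) tract, through which the mTOR kinase and the RNA-binding protein Larp1 control their translation. Free ribosomal proteins can also bind Mdm2 and raise p53, a response called nucleolar stress. In large sensory neurons, which keep long axons, ribosomes are abundant in the cell body.

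A pyrimidine-rich motif near the annotated start is a sequence feature of many of these genes that the rule of selection did not use. In RefSeq windows of 100 bases around the annotated start (GRCm38.p6; 50 bases on each side), the letters CTTTC stood on the transcribed strand in 36 of 73 windows of 61 ribosomal protein genes (49.3%), against 12.8% of all 32851 windows. Counting both strands, the shares were 57.5% and 23.4%. A second motif, ACTTCCG, stood on either strand in 19.2% of the ribosomal protein windows and in 3.83% of all windows. The 30-base stretches below are from the genes with CTTTC that had the highest and the lowest log2 differences (knockout minus wild type). The lowest of these genes differed little, from -0.12 for Rpl19 to -0.06 for Rpl5, and their groups overlapped. There are 4 at the higher end and 4 at the lower end, with a match in capitals (Rpl19 and Rpl7a hold another in lower case).
Rpl39: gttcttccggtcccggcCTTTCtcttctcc
Rpl26: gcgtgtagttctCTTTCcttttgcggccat
Rpl31: acggctacgcgaCTTTCcctcccacaaacc
Rpl10a: gcgctctgccttCTTTCcggtttccgcggc
Rpl19: gcggcccacaagctCTTTCctttcgctgct
Rpl7a: caattccctcttCTTTCtttctccagcagc
Rpsa: cggccgcccgtcCTTTCgcgctacccgggg
Rpl5: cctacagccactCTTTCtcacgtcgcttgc
The Rpl39 stretch lies at chrX:37085173-37085202 on the minus strand and that of Rpl5 at chr5:107900498-107900527 on the plus strand. The medians of the genes with and without the motif were close. The 31 tested genes with CTTTC near the start had a median log2 difference (knockout minus wild type) of 0.18. The 26 without it had a median of 0.20. Positive differences were found in 26 of the 31 and in 19 of the 26. The lowest difference with the motif was -0.12, for Rpl19. Rpl3, Rpl9, Rps6 and Rps9, whose knockout values all lay below the wild-type values, were not among the 31. A relation to the motif was not tested.

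The table gives TPM, the transcript share scaled to a total of 1000000 and corrected for transcript length, so levels can be compared between genes but sequencing depth is unknown. Each library reached 1 TPM in 13237 to 13960 rows. Dicer1 stood at 36.7, 26.0 and 48.7 TPM in wild type against 24.0, 20.8 and 21.8 TPM in knockout (log2 difference -0.68, limma adjusted p = 0.104); the groups did not overlap, and a whole-gene value cannot show how complete the deletion was. The neuronal genes Prph, Nefh and Tubb3 were at 958 TPM or more in every library. Replicate 3 of each group differed from the other libraries in the sex-linked transcripts Xist and Ddx3y. In wild-type and knockout replicate 3, Xist was at 0.06 and 0 TPM and Ddx3y at 33.3 and 32.7 TPM. In the other libraries, Xist was at 22.2 to 69.5 TPM and Ddx3y at 0.02 TPM or less.

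Ribosomal protein transcripts made up a slightly larger share of the transcriptome in the knockout libraries. The 80 genes summed to 34009, 30593 and 29027 TPM in wild-type libraries 1, 2 and 3, and to 34554, 39846 and 35997 TPM in knockout libraries 1, 2 and 3. All 3 knockout sums lay above all 3 wild-type sums, but wild-type library 1 and knockout library 1 were nearly equal. The group means were 31210 ± 2548 and 36799 ± 2736 TPM (SD, n = 3 each), or 3.12% and 3.68% of all transcripts, a ratio of 1.18. No p is given for this sum, because its genes were chosen with earlier results known, and 3 against 3 libraries could not give an exact p below 0.1.

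**Figure D1:**
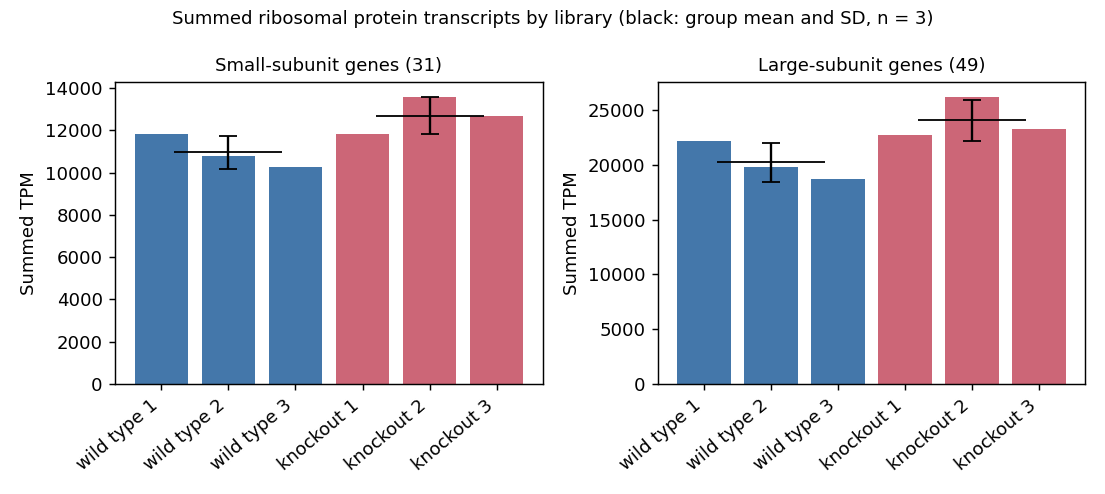
Summed TPM of the small-subunit genes (left) and large-subunit genes (right) in each library, with black bars for the group mean and SD. Knockout library 2 is highest in both panels, and wild-type library 1 (11826 and 22183 TPM) lies next to knockout library 1 (11818 and 22735 TPM).

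Both subunits differed in the same direction. Small-subunit transcripts summed to 10969 ± 784 TPM in wild type and 12707 ± 891 TPM in knockout, a ratio of 1.16. Large-subunit transcripts summed to 20241 ± 1763 and 24092 ± 1886 TPM, a ratio of 1.19. The ratio of large to small sums was 1.88, 1.83 and 1.82 in wild-type libraries and 1.92, 1.93 and 1.83 in knockout libraries, so that the groups overlapped. The small-subunit sum of wild-type library 1 (11826 TPM) was above that of knockout library 1 (11818 TPM).

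Few single genes passed the test. Of the 80 genes, 77 had a mean of at least 1 TPM and were tested with limma on log2(TPM + 1) together with all 13787 rows that reached this mean, with p-values adjusted over all of them. Rpl39 was called higher in the knockout libraries, 1 of 77 where 1.86% of all tested rows were called higher. No gene was called lower (0 of 77, against 3.17% of all rows; 2 had an unadjusted p below 0.05). At an unadjusted p below 0.05, 24 genes (31.2%) were higher, where 9.77% of all rows were, and 2 genes (2.6%) were lower, where 14.1% of all rows were. With median-of-ratios rescaling of the libraries, calls over all rows changed from 256 higher and 437 lower to 375 and 385, and the ribosomal protein calls were again Rpl39 alone.

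Most of the genes differed a little in the same direction. Of the 77 tested, 59 had a positive log2 difference (76.6%, against 45.0% of all rows), and the median was 0.18, against -0.05 over all rows. The values ran from -0.31 for Rpl3 to 0.85 for Rps27l, and the middle 50% of the genes lay between 0.00 and 0.37. The knockout and wild-type libraries did not overlap for 20 genes that were higher in knockout (26.0%, against 11.8% of all rows) and for 4 that were lower (5.19%, against 17.1%). Those higher were 10 of 31 small-subunit genes, among them Rps19, Rps25 and Rps29, and 10 of 46 tested large-subunit genes, among them Rpl10, Rpl26, Rpl29, Rpl39 and Rpl41. Those lower were Rps6, Rps9, Rpl3 and Rpl9. The medians of the 2 subunits were 0.21 (small) and 0.18 (large). The number of genes with a positive difference ranged from 52, without knockout library 2, to 66, with median-of-ratios rescaling.

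The order of the libraries was shared by most of the genes. Knockout library 2 held the highest value of 50 of the 77 genes, and wild-type library 3 held the lowest value of 36. Within wild type, library 1 was highest for 50 genes and library 3 lowest for 45. Within knockout, library 2 was highest for 53 and library 1 lowest for 45. The median difference between single libraries was largest for knockout 2 against wild type 3, at 0.39 log2 units with 60 genes higher. It was -0.03 for knockout 1 against wild type 1, with 35 of 77 genes higher in knockout. Libraries of the same genotype differed by as much as the genotypes did, with medians of 0.20 between wild types 1 and 3 and of -0.21 between knockouts 1 and 2. In wild-type library 1, 54 of the 77 genes were at or above the lowest knockout value, against 34 in library 2 and 25 in library 3. Without wild-type library 1, 11 genes were called higher, among them Rpl10, Rpl10a, Rpl15, Rpl21, Rpl26, Rpl29, Rpl37a, Rpl39, Rps24 and Rps27l, and 348 of all 13792 rows tested in that setting were. Without any single one of wild-type libraries 2 and 3 or knockout libraries 1 and 2, the number was 0, and without knockout library 3 it was 1 (Rpl10).

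**Figure D2:**
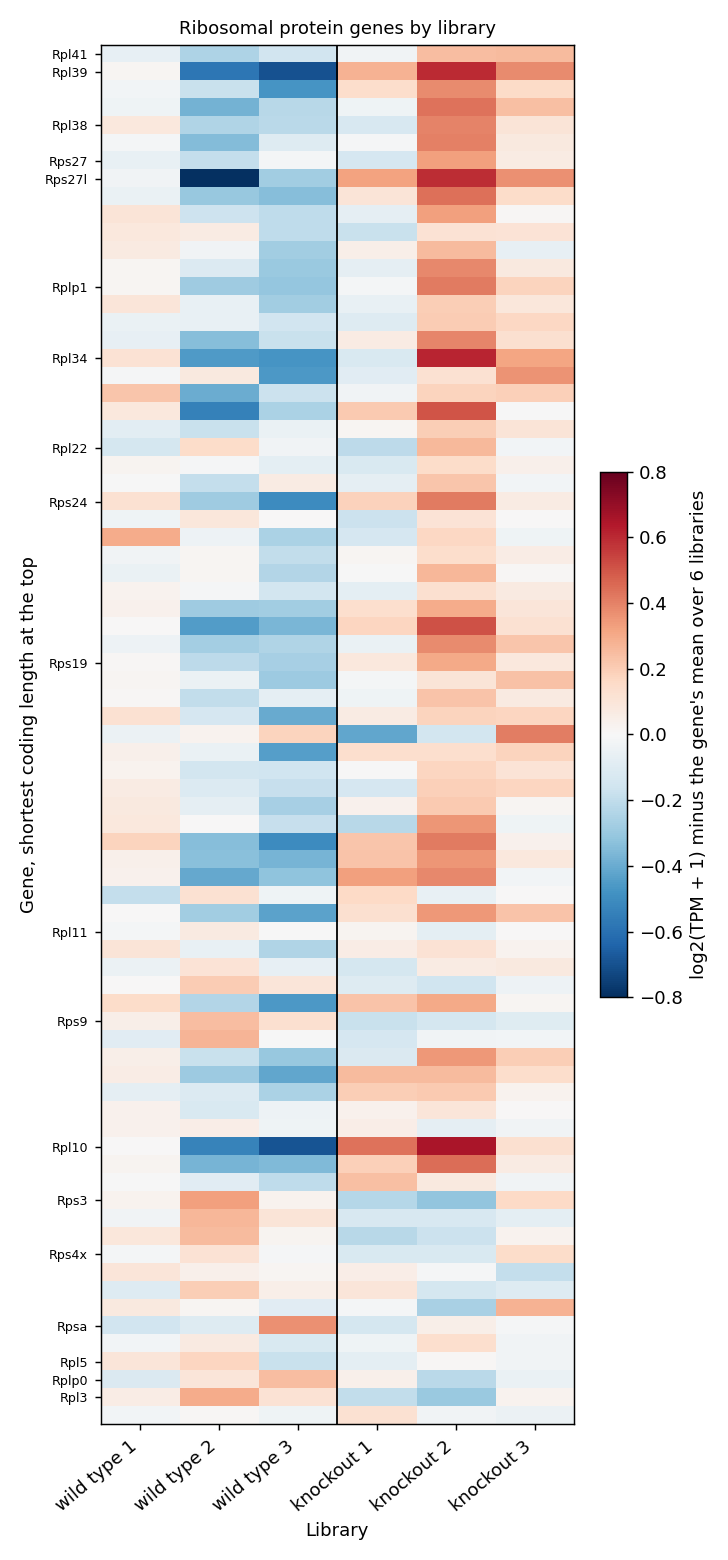
Heat map of the 77 tested genes (rows, shortest coding length at the top; some rows are named) in the 6 libraries (columns), as log2(TPM + 1) minus the gene's mean over the libraries, red above and blue below. Knockout library 2 is red and wild-type library 3 blue in most of the upper rows, wild-type library 1 is pale, and several of the longest genes at the bottom run the other way.

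Rpl39 encodes one of the shortest ribosomal proteins, which lines the tunnel through which the new chain leaves the large subunit (chromosome X, 37082520 to 37085402, GRCm38). It was at 1060.2, 702 and 647 TPM in wild-type libraries 1, 2 and 3 and at 1269.8, 1583 and 1363 TPM in knockout libraries 1, 2 and 3. All knockout values lay above all wild-type values, and wild-type library 1 came closest. The means were 803 ± 224 and 1406 ± 161 TPM (SD, n = 3), a ratio of 1.75 and a log2 fold change of 0.84 (SE 0.18, limma adjusted p = 0.0377). The call was lost in 9 of 19 alternative analyses, with adjusted p from 0.0118 to 0.163. Leaving out wild-type library 2 or 3, or any knockout library, gave 0.0718 to 0.134.

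Rpl10 encodes a late-joining protein near the catalytic centre of the large subunit and is also on chromosome X (74270812 to 74273135). Its levels were 1121, 772 and 692 TPM in wild type against 1507, 1758 and 1219.9 TPM in knockout. The groups did not overlap. The log2 difference was 0.81 (SE 0.20), and its adjusted p of 0.0506 in limma missed the threshold of 0.05. It passed in 7 of 19 alternatives, among them the one with a replicate block (0.0389). The remaining 2 X-linked genes were close between groups, Rps4x with a log2 difference of -0.06 and Rpl36a with 0.16. The 386 other tested X-linked genes had a median of -0.04. Both Rpl10 and Rpl39 have pseudogenes (5 and 1 that carry their symbol in the annotation), and 59 of the 80 genes have at least 1, so the sharing of reads between near-identical copies makes single values uncertain.

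Rps27l, a near-identical paralogue of Rps27 and a known p53 target gene, had the largest positive difference. It was at 113, 58.4 and 95.1 TPM in wild type and at 145, 174 and 149 TPM in knockout (log2 difference 0.85, SE 0.22, limma adjusted p = 0.0593). The groups did not overlap, although the call was not made. Its partner Rps27 was at 519, 473 and 535 TPM in wild type and at 492, 680 and 566 TPM in knockout, and these overlapped. Rps27l thus made up 17.9%, 11.0% and 15.1% of the pair in wild-type libraries and 22.8%, 20.4% and 20.8% in knockout libraries.

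**Figure D3:**
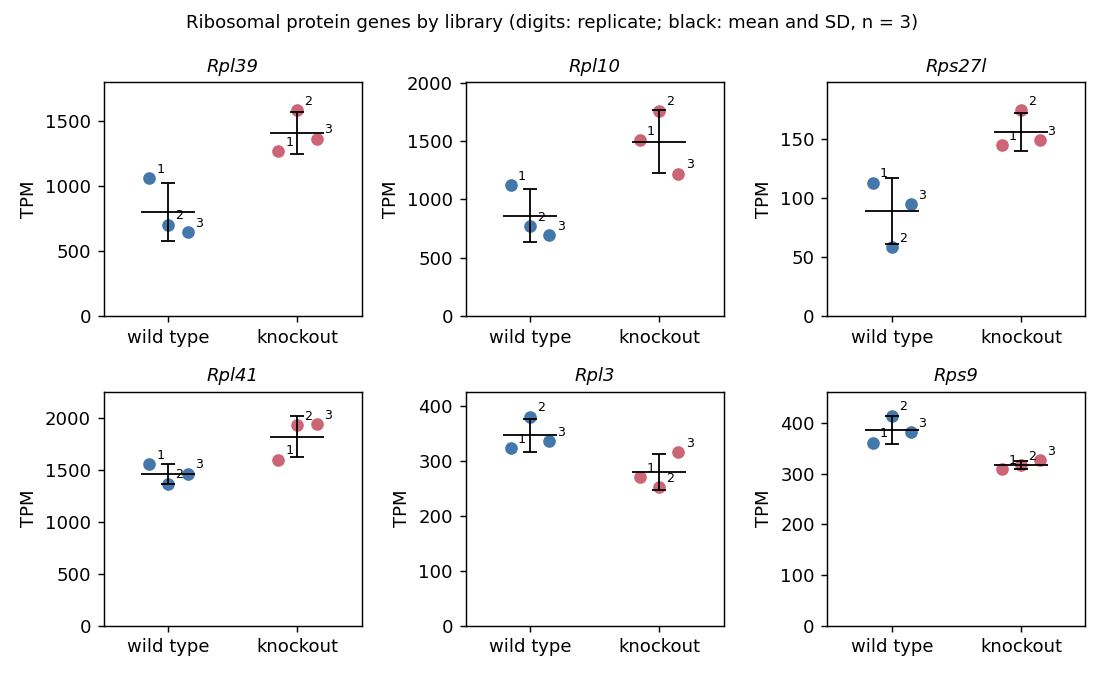
Levels of 6 genes in TPM by group, with the replicate number beside each point and black bars for mean and SD. The knockout points lie above the wild-type points for Rpl39, Rpl10, Rps27l and Rpl41 and below them for Rpl3 and Rps9, and replicate 1 is the highest wild-type point in the first 4 panels.

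The most abundant of the genes was Rpl41, which encodes the smallest ribosomal protein, at 1552, 1367 and 1461 TPM in wild type and 1594, 1925 and 1937 TPM in knockout (log2 difference 0.31, adjusted p = 0.151). Rpl10 and Rpl39 followed. Rpl38, a large-subunit gene that shapes Hox translation in the mouse embryo, was at 1074, 858 and 875 TPM in wild type and at 929, 1334 and 1091 TPM in knockout. These groups overlapped (log2 difference 0.25, adjusted p = 0.364). Rps24, a small-subunit gene, was at 867, 654 and 563 TPM in wild type and at 907, 1063 and 833 TPM in knockout (log2 difference 0.44, adjusted p = 0.151). It was called higher only without wild-type library 1 (adjusted p = 0.0436), the library with the highest wild-type value. After Rpl39 and Rpl10, the next difference in the large subunit was that of Rpl34, at 312, 210.3 and 208 TPM in wild type and at 265, 439 and 359 TPM in knockout, where knockout library 1 fell inside the wild-type range (log2 difference 0.54, adjusted p = 0.167). Rpl34 (0.536) and Rpl26 (0.535) were nearly equal in this difference, and Rpl26 had no overlap between groups.

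The genes of the stalk proteins, which recruit elongation factors to the large subunit, differed in sign. Rplp1 was at 746, 604 and 594 TPM in wild type and at 731, 983 and 836 TPM in knockout (log2 difference 0.39, adjusted p = 0.14). Rplp2 had a difference of 0.18 (adjusted p = 0.386). Rplp0, which anchors both, was at 188, 218 and 243 TPM in wild type and at 209.9, 176 and 197 TPM in knockout (log2 difference -0.15, adjusted p = 0.506). None of the 3 passed the test in limma, and the groups overlapped in each.

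A few genes of longer proteins were lower in the knockout libraries without passing the test. Rpl3, which encodes one of the largest ribosomal proteins (chromosome 15, 80077791 to 80091868), was at 324, 381 and 336 TPM in wild type and at 271, 252 and 316 TPM in knockout (log2 difference -0.31, SE 0.12, adjusted p = 0.161). Rps9 was at 362, 415 and 383 TPM in wild type and at 309.6, 317 and 327 TPM in knockout (log2 difference -0.28, adjusted p = 0.134). Neither gene's groups overlapped. Rps3, which lines the entry of the messenger channel, was at 109, 135 and 109 TPM in wild type and at 91.4, 86.1 and 119.8 TPM in knockout, with knockout library 3 inside the wild-type range (log2 difference -0.26, adjusted p = 0.354). Rps6, the substrate of the S6 kinases, had a difference of -0.22, with no overlap between groups.

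None of the genes tied to human ribosome disorders and to nucleolar stress described next was called in limma. Rpl5 and Rpl11, whose proteins bind Mdm2, had log2 differences of -0.06 and -0.04. Rpl11 was at 583, 620.2 and 587 TPM in wild type and at 597, 559 and 589 TPM in knockout, and Rpl5 at 279.7, 294 and 231 TPM and at 247, 263 and 256 TPM; both overlapped, and with median-of-ratios rescaling both differences were positive (0.01 and 0.03). Rps19, the gene most often mutated in Diamond-Blackfan anaemia, was at 227, 196 and 188 TPM in wild type and at 240.6, 279 and 239.8 TPM in knockout (log2 difference 0.31, adjusted p = 0.152), with no overlap. Rpsa, also known as a laminin receptor precursor, had a difference of -0.07, with wild-type library 3 highest of all 6 at 283 TPM, and its difference was positive without that library (0.09) and with median-of-ratios rescaling (0.0017).

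Levels differed widely between genes. Among the tested genes, 68 had a mean between 100 and 700 TPM, and 3 were below 100 TPM: Rps15a at 35.5 to 43.0 TPM, Rpl18 at 59.3 to 70.7 TPM and Rpl22 at 48.0 to 66.8 TPM over the 6 libraries. None of these 3 differed by more than 0.05 log2 units. The 3 genes below the filter are tissue-restricted paralogues. Rpl3l, a muscle paralogue of Rpl3, was at 0.76 TPM or less in every library, and Rpl10l and Rpl39l, which are known from testis, were at 0.49 and 0.29 TPM or less. The spread of log2 levels among genes was 0.87 to 0.93 (SD) in the wild-type libraries and 0.94 to 1.0 in the knockout libraries.

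The difference between the groups was larger for short ribosomal protein genes than for long ones. The 26 genes with the shortest coding sequence (75 to 399 bases, without the stop codon) had a median log2 difference of 0.26, and all 26 were positive. The middle 25 (405 to 552 bases) had a median of 0.18 with 21 positive. The longest 26 (564 to 1257 bases) had a median of -0.05 with 12 positive. They held all 4 genes that were lower without overlap, and also 4 that were higher without overlap. The shortest and middle classes held 9 and 7 genes that were higher without overlap. Over all rows, 11.8% were higher and 17.1% lower without overlap. Across the 77 genes, Spearman's rho between coding length and log2 difference was -0.50, and it was -0.63 over the 31 small-subunit and -0.45 over the 46 large-subunit genes. These genes share the same 6 libraries and are not independent. By library, rho between coding length and the deviation from each gene's mean was 0.03, 0.49 and 0.37 in wild-type libraries 1 to 3 and 0.01, -0.61 and -0.45 in knockout libraries 1 to 3. Libraries 1 of both groups thus showed no relation to length.

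Other genes showed the same order at smaller size. The 565 other tested genes with a coding length of up to 399 bases had a median of 0.13, and the 205 of these with a mean of at least 100 TPM had a median of 0.19 (66.3% positive). The 6343 genes longer than every ribosomal protein gene had a median of -0.09. Across 11455 other genes rho was -0.09, and across the 1622 of them at 100 TPM or more it was -0.18. The part of transcript length in the ribosomal protein difference was not tested.

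**Figure D4:**
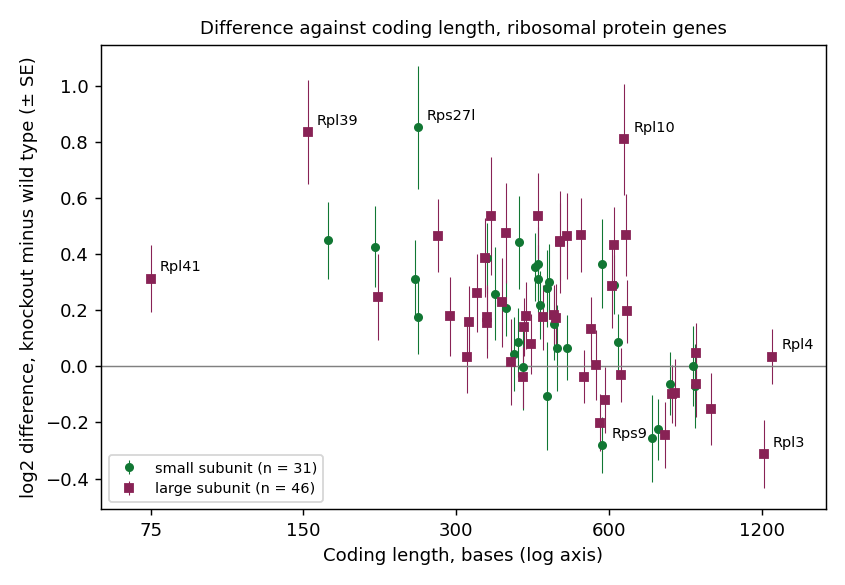
Log2 difference (knockout minus wild type, with SE) of the 77 tested genes against coding length in bases on a log axis, small subunit as green circles and large subunit as purple squares. The genes up to 399 bases all lie above 0, those of 564 bases and more scatter around 0, and Rpl10 (642 bases) stands above the genes of its length.

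Markers of satellite glia, which ensheathe the neuron somata in the ganglion, were mostly at lower levels in the knockout libraries. Of 12 tested markers, 2 were called lower in limma (Fabp7 and Gja1), where 3.17% of all rows were. The median log2 difference was -0.50, 1 marker (Glul) had a positive difference, and at an unadjusted p below 0.05 there were 5 lower and 1 higher. Their mean log2 level was 5.02, 4.36 and 5.71 in wild-type libraries and 4.33, 3.89 and 4.78 in knockout libraries, in replicate order. Wild-type library 3, with the highest level, had the least ribosomal protein transcript, and knockout library 2, with the lowest, had the most. The other libraries did not all keep this order: knockout library 3 was above knockout library 1 in both (ribosomal protein sums of 35997 and 34554 TPM). Wild-type library 1 was likewise above wild-type library 2 in both (34009 and 30593 TPM). The list summed to 2078 to 3072 TPM in wild type and to 1786 to 2169 TPM in knockout. S100b, which large sensory neurons also express, held 1219.6 to 1354 TPM of this in each library. With the glial level as a covariate, the median difference of the ribosomal protein genes was 0.12 (0.02 over all rows), with 54 of 77 positive. The number called was 0, while calls over all rows fell from 256 higher and 437 lower to 77 and 106. The part of these cells in the result was otherwise not tested. In a bulk library, fewer cells of a type and less RNA per cell cannot be told apart. The other cell types left few transcripts. Macrophage markers summed to 6.02 to 10.6 TPM in wild type and 3.87 to 5.97 in knockout, with C1qa and C1qc listed at 0 in every library. Endothelial and mural markers summed to 14.6 to 21.4 and 19.5 to 31.2 TPM with Cldn5 at 0, fibroblast markers to 22.9 to 46.0 and 28.3 to 44.0 TPM, and erythroid markers to 3.99 to 20.2 and 12.5 to 54.8 TPM with Hbb-b1 at 0. None of the 9 tested genes of these 4 lists was called in limma (1 higher and 1 lower with unadjusted p below 0.05). Of 3 tested myelinating Schwann cell genes, Pmp22 was called higher, where 1.86% of all rows were. The Schwann cell list summed to 448 to 527 TPM in wild type and 1039 to 1391 TPM in knockout. Of 14 proprioceptor and sensory neuron genes, 7 were called lower, with Pvalb and Runx3 among them, against 3.17% of all rows. This list was chosen with earlier results of these data known, so its share of calls is not an independent result.

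Genes that carry or resemble ribosomal proteins under other names differed in both directions, and none passed the test. Fau, which encodes a ribosomal protein fused to a ubiquitin-like domain, was higher by 0.24 log2 units, and Rpl36al, a paralogue of Rpl36a, by 0.15. Rps3a1, a small-subunit protein gene outside the naming rule, was at 415, 502 and 413 TPM in wild type and at 337, 343 and 436 TPM in knockout (log2 difference -0.26, limma adjusted p = 0.292), and the groups overlapped. Fau was at 474, 422 and 397 TPM in wild type and at 475, 527 and 519 TPM in knockout, with no overlap. Of the 7 tested genes of this list, 5 had a positive difference, the median was 0.15 and 0 were called in limma (0 at an unadjusted p below 0.05). Over all rows, 45.0% were positive, and 1.86% were called higher and 3.17% lower.

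Initiation factor genes lay close to all tested rows, and elongation and release factor genes had a lower median. Of 36 initiation factor genes, 15 had a positive difference, the median was -0.06 (-0.05 over all rows, of which 45.0% were positive) and 0 were called (unadjusted limma p below 0.05 for 3 higher and 7 lower). Eif4a2, a helicase and the most abundant of them, was at 874, 1238 and 901 TPM in wild type and at 617, 626 and 895 TPM in knockout (log2 difference -0.50, adjusted p = 0.142). Of 14 elongation and release factor genes, 3 were positive and the median was -0.23, again with 0 called (1 higher and 4 lower unadjusted). Over all rows, 1.86% were called higher and 3.17% lower, and 9.77% and 14.1% were so at the unadjusted p. Eef1a1, which delivers transfer RNA to the ribosome, had a difference of 0.13, and Eef1g, a subunit of its exchange factor, was at 365, 540.0 and 431 TPM in wild type and at 345, 296 and 357 TPM in knockout, with no overlap.

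Other messengers with a TOP start were not higher as a group. Of 21 tested, 9 had a positive difference and the median was -0.07, with 0 called in limma (2 higher and 6 lower unadjusted). Over all rows, 45.0% were positive, 1.86% were called higher and 3.17% lower, and 9.77% and 14.1% were so at the unadjusted p. Tpt1, a classical TOP messenger, was at 836, 993 and 912 TPM in wild type and at 679.6, 680.2 and 778 TPM in knockout, with no overlap (log2 difference -0.36, adjusted p = 0.0962). Groups that did not overlap were lower in knockout for 7 of the 21 and higher for 2, where 17.1% and 11.8% of all rows were. In the ribosomal protein genes they were lower for 4 of 77 and higher for 20. This contrast was not tested. The 21 genes are not separate from the lists above. Of the 7 lower ones, Eef1b2, Eef1d, Eef1g and Eef2 are also in the elongation list, and several initiation factor genes are in both lists. Npm1 and Gas5 recur in the lists described next.

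None of the genes for making ribosomes was called, where 1.86% of all rows were called higher and 3.17% lower. Over all rows, 45.0% were positive. At an unadjusted limma p below 0.05, 9.77% of all rows were higher and 14.1% lower. Of 46 assembly factor genes, 9 were positive and the median was -0.14 (2 higher and 7 lower unadjusted, 0 called in limma). Nop56, a core protein of the particles that methylate ribosomal RNA, was one of the exceptions, at 309, 194 and 292 TPM in wild type and at 433, 417 and 327 TPM in knockout (log2 difference 0.58, adjusted p = 0.104). Of 28 genes of RNA polymerases I and III and their factors, 15 were positive, with a median of 0.04 and 0 called in limma (0 higher and 3 lower unadjusted). Host genes of small nucleolar RNAs, which are spliced from introns and whose messengers often also begin with a TOP tract, had positive differences in 10 of 11 and a median of 0.51. None was called in limma (3 higher and 0 lower unadjusted), and their levels varied widely, as for Gas5 at 144, 62.5 and 119 TPM in wild type and 129, 207 and 251 TPM in knockout. The host list summed to 209 to 420 TPM in wild type and 500.5 to 541 TPM in knockout. By single gene, 1 of the 11 (Snhg12) was higher without overlap, where 11.8% of all rows were.

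Among genes that control ribosome production, Myc rose. Myc, a transcription factor known to drive ribosomal genes, was at 11.2, 9.14 and 10.8 TPM in wild type and at 23.7, 28.3 and 17.0 TPM in knockout, with no overlap (log2 fold change 1.05, SE 0.22, limma adjusted p = 0.0292). The call was lost in 8 of 19 alternatives, with adjusted p up to 0.118, and leaving out wild-type library 2 or 3 or knockout library 1 or 2 gave 0.0727 to 0.112. The other 17 of 18 tested genes of mTOR signalling and TOP control were not called, where 1.86% of all rows were called higher. Eif4ebp1, which encodes a repressor of cap-dependent initiation, had the largest difference of the list without a call. It was at 5.05, 0 and 1.51 TPM in wild type and at 12.2, 9.14 and 8.71 TPM in knockout, with no overlap (limma adjusted p = 0.0625). Larp1 had a log2 difference of -0.04 and Mtor of -0.13. Of 15 tested genes of the p53 response, Cdkn1a, which encodes p21, a brake on cell division, rose to 23.2 ± 5.16 TPM in knockout from 7.55 ± 1.97 TPM in wild type (limma adjusted p = 0.0117), and Aen, a p53-induced nuclease, fell from 38.8 ± 7.75 to 16.9 ± 0.47 TPM (adjusted p = 0.0115). Both calls were lost without knockout library 1 (0.0577 and 0.0538). The other 13 were not called, with a list median of 0.03. Over all rows, 1.86% were called higher and 3.17% lower.

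Mitochondrial ribosomal protein genes, whose products form the separate ribosome of mitochondria, were centred near 0. Of 76 tested, 37 were positive, where 45.0% of all rows were, and the median was -0.01. At an unadjusted limma p below 0.05, 9 were higher and 12 lower, where 9.77% and 14.1% of all rows were. None was called lower, where 3.17% of all rows were, and 2 were called higher, where 1.86% of all rows were. Mrpl33 was at 103, 95.7 and 85.6 TPM in wild type and at 138, 160.0 and 131 TPM in knockout (log2 fold change 0.59, limma adjusted p = 0.0338). Mrpl22 was at 64.6, 61.0 and 58.7 TPM in wild type and at 105, 81.1 and 99.5 TPM in knockout (0.61, adjusted p = 0.0341). Each of these calls was lost in 9 of 19 alternatives. Leaving out wild-type library 2 or 3 or knockout library 1 ended both, as did leaving out knockout library 2 for Mrpl33 and knockout library 3 for Mrpl22 (adjusted p from 0.0765 to 0.13 in these cases). The number of called genes, 2 of 76 here and 1 of 77 for the cytosolic ribosome, was similar, while 37 and 59 genes had a positive difference. That difference between the 2 lists was not tested.

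**Figure D5:**
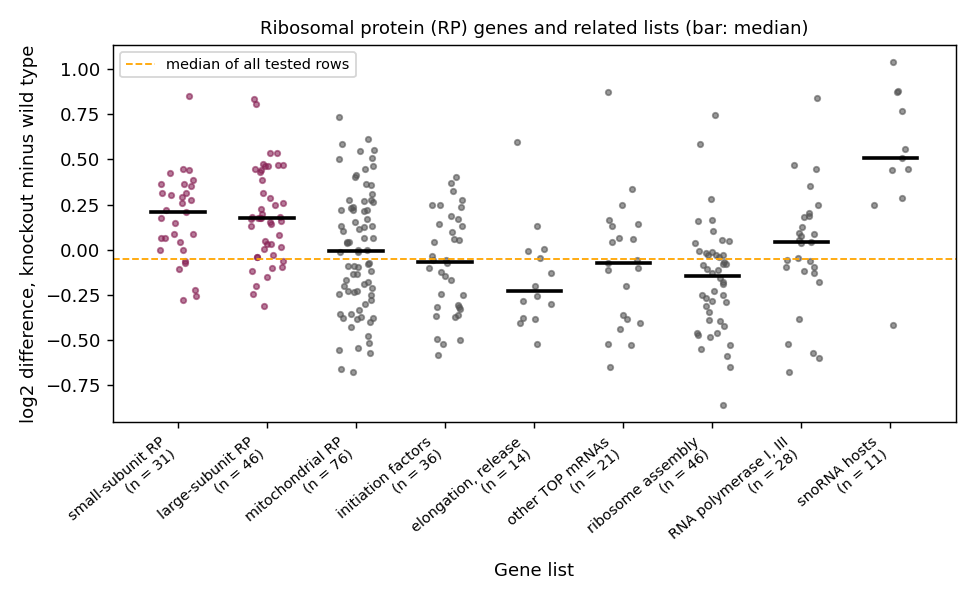
Log2 difference of each tested gene (points) in the small-subunit and large-subunit ribosomal protein genes (purple) and in 7 related lists (grey), with a bar for each median and a dashed line at the median of all tested rows (-0.05). The ribosomal protein medians (0.21 and 0.18) and that of the small nucleolar RNA hosts (0.51) lie above the line, and the elongation and assembly lists (-0.23 and -0.14) below it. Some genes appear in several of the grey lists.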

How the data were processed

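Per the labels' protocols, RNA was extracted with the PicoPure kit, amplified as cDNA with an Ovation kit and sheared before adapter ligation. Per the submitters' processing notes, the build was mm10 and RSEM 1.2.7, Bowtie2 and cutadapt were used with an annotation release not given in the sources used here. TPM values were deposited by the authors, 1 column per library, each summing to about 1000000; depth is not kept. A rise of abundant transcripts lowers the TPM of others.

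Rows averaging 1 TPM or more were tested with limma 3.58.1 under R 4.3.3, using log2(TPM + 1), genotype as the only term, a variance trend on level and Benjamini-Hochberg adjustment at 0.05; fold changes understate low genes. The step was tested on simulated data. GENCODE vM21 (GRCm38, also called mm10) gave positions and coding lengths. Where a name had several rows, the highest was used. Coding length is that of the principal transcript, and promoter windows are RefSeq's.

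The genes and lists were chosen with earlier results of these data known. Genes named are Dicer1, the 6 most abundant, called and most different genes, those with roles in nucleolar stress and stalks, paralogues, and up to 3 per related list; every other gene named was chosen after its values were seen. Not found by name were Eif3j1, Rack1 (present as Gnb2l1), Rpl26l1, Utp4, Bxdc1, Deptor, Mycl, Snhg8, Snhg20, Zfas1, Epb4.1l4aos, Hba-a1, Hbb-bt and Hbb-bs. Alternatives were another pseudocount, filter or scaling, summed rows, a replicate block, library weights, and left-out libraries. Values of a few single genes are not reported here.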

Additional observations from a re-analysis of the deposited data

How the results depend on the processing

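The number of ribosomal protein genes called higher was 1, and it was 1 again with a pseudocount of 0.1, median-of-ratios rescaling, rescaling to the total of all other rows, library weights and the replicate block, where the called gene was Rpl10 in place of Rpl39. It was 2 with a pseudocount of 5, with quantile normalization and with rows of the same name summed, 3 with a filter at a mean of 5 TPM, and 0 with no filter, with replicates 1 and 2 of each group only, and when the glial marker level entered the model. Leaving out 1 library gave 0 to 11. The number called lower was 0 in all 19 alternatives. The glial term, and leaving out wild-type replicate 1 together with knockout replicate 2 (1 called), were chosen after seeing the data. The median log2 difference stayed positive, from 0.11 to 0.25, and the difference of the sums ranged from 4066 to 7275 TPM. Dicer1 ranged from -0.90 to -0.46 when 1 library was left out; it was called without wild-type replicate 2 (limma adjusted p = 0.0412), and was at -0.35 with the glial term (adjusted p = 0.39).

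Genes near 0 changed sign. With median-of-ratios rescaling, Rpl5 (0.0081), Rpl11 (0.035), Rpsa (0.0017) and Rps4x (0.010) turned positive. Rpsa was also positive in replicates 1 and 2 only (0.083) and with the glial term (0.086). Rpl22 was negative with library weights (-0.018), the glial term (-0.11) and without wild-type replicate 1 and knockout replicate 2 (-0.18), and Rpsa there was at -0.21. With 1 library left out, Rpl5 ranged from -0.17 to 0.0067, Rpl22 from -0.11 to 0.12 and Rpsa from -0.17 to 0.094. The cause was not tested. 

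Deviations of same-numbered libraries correlated weakly, at 0.049, 0.066 and 0.038, and those of differently numbered libraries at -0.098 to 0.07. Wild-type replicate 3 correlated best with knockout replicate 1 (0.07), while knockout replicates 2 and 3 each correlated best with their own number. Replicate 3 of both groups also shared the Xist and Ddx3y pattern described above. Values this small cannot tell whether the replicate numbers pair the libraries. With the replicate block, 188 rows were called higher and 341 lower, against 256 and 437. Over all rows the calls, higher and lower, were 130 and 248 with no filter, 389 and 461 with quantile normalization, 65 and 139 in replicates 1 and 2 only, 77 and 106 with the glial term, and 58 and 90 without wild-type replicate 1 and knockout replicate 2. Leaving out 1 library gave 48 to 348 higher and 116 to 487 lower. Depth is unknown for TPM values, so no counting error can be given.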

Other observations

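Rpl22 and its paralogue Rpl22l1, which the naming rule did not include, were at very different levels. Rpl22l1 was at 289, 153 and 193 TPM in wild type against 225, 264 and 277 TPM in knockout, and Rpl22 at 50.5, 61.7 and 54.5 TPM and at 48.0, 66.8 and 54.7 TPM. The paralogue made up 85.1%, 71.3% and 78.0% of the pair in wild type and 82.4%, 79.8% and 83.5% in knockout, so that the groups overlapped. Rpl36al made up 65.3% to 68.9% of its pair with Rpl36a in the 6 libraries.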
